A study of Mus musculus with 12 samples.

Results

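The mitochondrial ribosomal proteins were followed as 1 gene family in bone marrow-derived macrophages. Members were the genes of the deposited count table whose symbol starts with Mrpl or Mrps followed by a number and which had at least 100 reads over the 12 libraries. Of 78 symbols that match, 77 were members. The remaining symbol, Mrpl53, had 3 reads in all, whereas the member with the fewest reads, Mrps6, had 401. The table holds 47937 genes, 11760 of them had enough reads to be tested, and all 77 members were among those. In all, 124585 reads fell on the members.

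Marrow cells of C57BL/6 mice were cultured with CSF-1 for 7 days, which gives primary macrophages outside a tissue. The study asked what triacylglycerol synthesis does for inflammatory macrophages, and 4 groups of 3 libraries were compared here. M0 macrophages were resting, with no time given in the labels. IFNγ + LPS macrophages received 50 ng/ml IFNγ and 20 ng/ml LPS for 18 h. The M0 + DGAT1i group received 50 µM T863 for 18 h, and the IFNγ + LPS + DGAT1i group received the stimulus and the same dose of T863. T863 is a small molecule that blocks DGAT1, an enzyme that adds the last fatty acid to make triacylglycerol. No gene was deleted in any group. The free-text description of 2 of the 3 M0 + DGAT1i libraries gives another compound number, and they were read as T863 from their other labels. The labels do not say that the libraries come from separate cultures or animals, so p-values measure the spread between these libraries, which may be technical.

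Mitochondria carry their own ribosome, which makes the few proteins that mitochondrial DNA encodes, all of them core subunits of the respiratory chain or of ATP synthase. Its RNA comes from mitochondrial DNA, but every protein of it is encoded in the nucleus, made in the cytosol and imported. Mrpl genes encode proteins of the large subunit, which holds the peptidyl transferase centre where the chain grows, and Mrps genes encode proteins of the small subunit, which decodes the mRNA. Many members descend from bacterial ribosomal proteins, and others occur in mitochondrial ribosomes alone. Some names mislead. Mrps18a and Mrps30 lie in the large subunit, Mrpl58 is a peptidyl-tRNA hydrolase built into it, and Mrps36 is a subunit of 2-oxoglutarate dehydrogenase. By these roles 31 members were counted as large-subunit proteins with a bacterial homologue, 19 as mitochondria-specific large-subunit proteins, 17 as small-subunit proteins with a bacterial homologue and 9 as mitochondria-specific small-subunit proteins, while Mrps36 was kept apart.

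Genes for mitochondrial proteins are known targets of NRF1, of ETS factors such as GABP, of YY1 and of MYC, so 4 fixed motifs were searched on both strands of the RefSeq promoters (GRCm38.p6, 250 bases before to 50 bases after each start). They were GCATGCGC (NRF1 core), CCGGAAG (ETS), AAGATGG (YY1) and CACGTG (E-box, the site that MYC and MAX bind). Among the members that IFNγ + LPS moved most, 4 that rose and 2 that fell were picked for display because their promoter holds a match. Mrpl45, Mrpl23 and Mrpl28 hold none, and no promoter sequence was found for Mrps28. The promoters picked are shown, read 5′ to 3′ on the strand of the gene, with the matches that lie wholly in the printed bases in capitals. Where GENCODE places an untranslated region in the 150 bases before the start, 30 bases around the match are given, and otherwise all 150.
Mrpl52: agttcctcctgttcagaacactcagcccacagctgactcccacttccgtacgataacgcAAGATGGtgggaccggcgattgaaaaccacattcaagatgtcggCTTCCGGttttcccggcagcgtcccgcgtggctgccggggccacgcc
Mrpl27: gtccgcaagacCCGGAAGtagatctatccc
Mrpl39: aggagaggcGCGCATGCGCccccgcgtggc
Mrpl32: tGCGCATGCGCaagaggggcctGCGCATGC
Mrpl33: agccttctaccggaacccGCGCATGCcccg
Mrps26: tggtgctccgcggccaCTTCCGGgccgggc

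These windows lie at chr14:54426759-54426908 (plus strand) for Mrpl52, chr11:94653725-94653754 (plus) for Mrpl27, chr16:84735349-84735378 (minus) for Mrpl39, chr13:14613096-14613125 (minus) for Mrpl32, chr5:31613921-31613950 (plus) for Mrpl33 and chr2:130563727-130563756 (plus) for Mrps26. Mrpl52 holds a YY1 match that begins 91 bases before the start and an ETS match on the other strand at 47. Mrpl27 holds an ETS match at 55, Mrpl39 an overlapping pair of NRF1 matches at 125 and 123, and Mrpl32 NRF1 matches at 87, 85 and 66. The same motifs occur in members that moved the other way, with an NRF1 match 12 bases before the start of Mrpl33 and an ETS match at 14 in Mrps26. Beyond the printed bases Mrpl32 holds a further NRF1 match and a YY1 match, Mrpl52 a further ETS match just after the start, and Mrpl33 an ETS match that spans the start, so that its first bases end the printed run in lower case. Sequences were found for 68 members, which have 74 promoters of this kind. Of these, 33.8% hold the ETS motif, against 18.6% of the promoters of all genes tested, 10.8% hold the NRF1 core against 5.42%, 17.6% hold the YY1 motif against 7.41%, and 9.46% hold the E-box against 10.3%. Over all 32851 promoters in the table the shares were 8.86% for ETS, 2.71% for NRF1, 6.34% for YY1 and 7.15% for the E-box. By gene, 36.8% of the 68 members hold the ETS motif against 21.8% of the genes tested, 11.8% the NRF1 core against 6.34%, 19.1% the YY1 motif against 8.90% and 7.35% the E-box against 12.2%, and 3 of the promoters counted for the E-box are overlapping windows of Mrpl2. A match is a run of letters and does not show that a factor is bound.

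The libraries held 4996014 to 6621671 counted reads, and libraries of 1 group correlated at 0.988 to 0.992 across genes. Levels are given as CPM, the reads of a gene scaled to a common library total, after TMM scaling, in which 1 CPM corresponds to 4.28 to 7.58 reads, so a member was counted with 9 to 356 reads in a library. TMM factors were higher in M0 than in IFNγ + LPS libraries, and with library size alone as the scale the median log2 change of all genes with IFNγ + LPS moved by -0.47 without and by -0.42 with the inhibitor. Changes with IFNγ + LPS are therefore relative to the typical gene of the same library. Fewer cells of a type and less RNA per cell cannot be told apart in such bulk samples. Of 8 macrophage markers, Lyz2 had 9641 CPM in M0, 2956 in IFNγ + LPS, 13045 in M0 + DGAT1i and 3107 in IFNγ + LPS + DGAT1i, and the other 7 summed to 4109, 5731, 4151 and 5248 CPM. Among those 7, Adgre1, Fcgr1 and Mertk had higher means in IFNγ + LPS than in M0, and Csf1r, Cd68, Itgam and Cd14 lower ones. The lymphocyte, stroma and mast cell lists stayed between 0 and 2.11 CPM in every library.

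Among the members, mean levels ran from 5.40 CPM (Mrps6) to 47.7 CPM, with a median of 21.1. Per kilobase of annotated exon, Mrps21, a small-subunit protein, was the highest at 39.2 CPM per kb, followed by Mrpl34 at 29.7 and Mrpl27 at 26.7. At 95% identity or more, the pseudogene Gm6181 (2 reads) covers 54.1% of the Mrps21 transcript. The pseudogene Gm6304 (7 reads) covers 59.1% of the Mrpl27 transcript. How the counting treated reads that match such copies was not given. Mrps35 at 1.40, Mrpl23 at 1.54 and Mrpl48 at 2.02 CPM per kb were the lowest. These 3 have long annotated exons (4883 to 8631 bases, against a median of 2533 over the members), which lowers a level per kilobase. Neither Mrps21 nor Mrpl34 passed the test with IFNγ + LPS, with log2 changes of 0.11 and 0.01, nor did Mrps35 with -0.09. As a share of all reads, the members took 0.197% in M0, 0.186% in M0 + DGAT1i, 0.159% in IFNγ + LPS and 0.145% in IFNγ + LPS + DGAT1i.

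**Figure D1:**
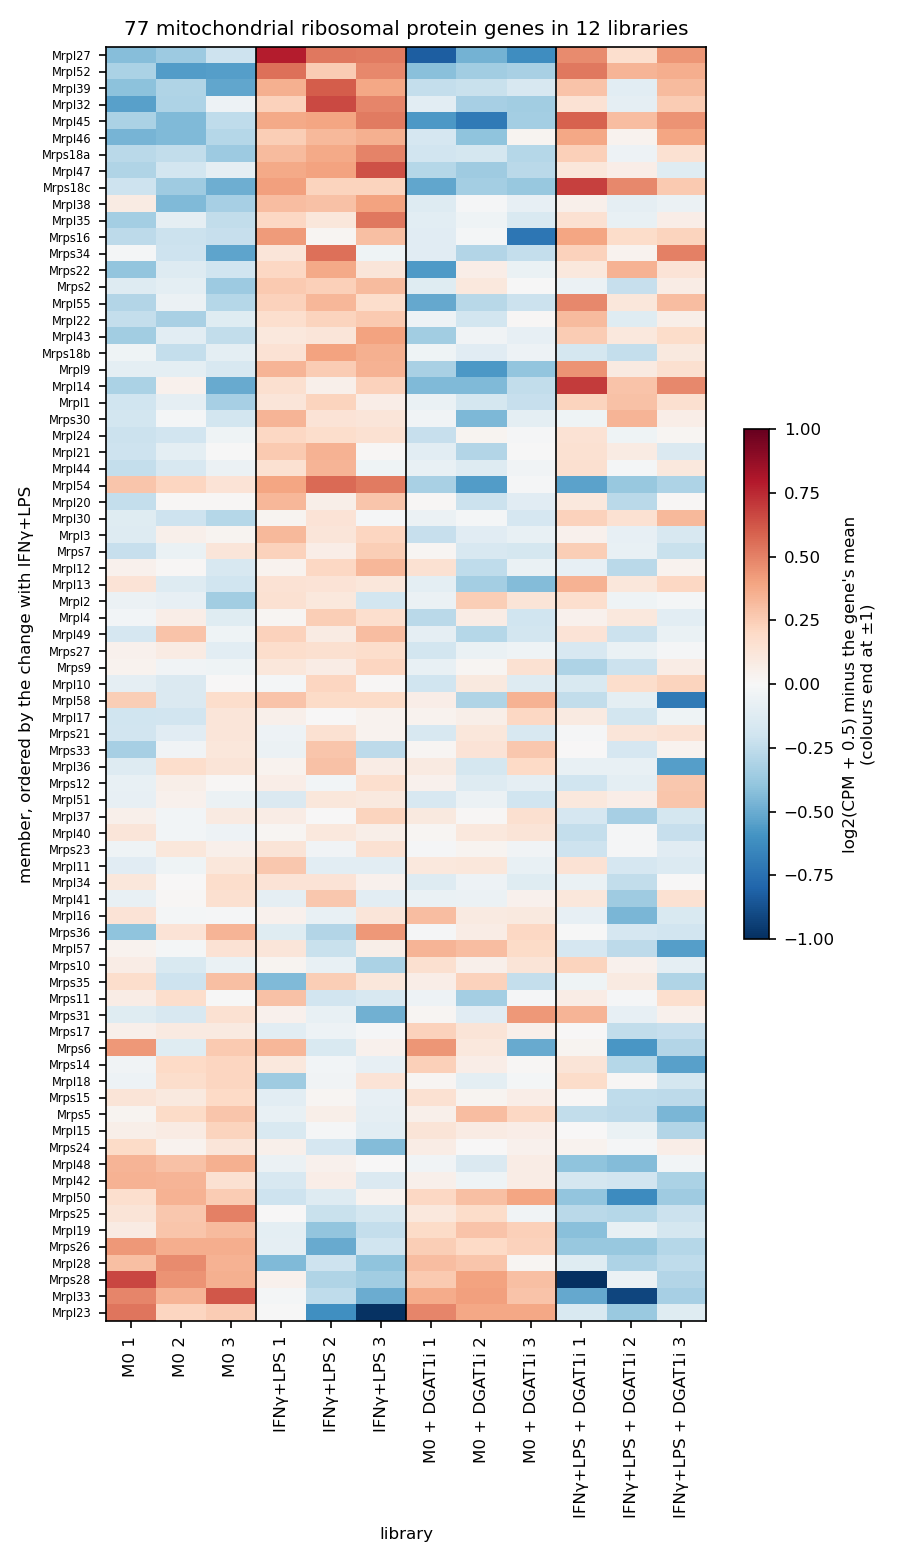
Heat map of the 77 members (rows, ordered by their change with IFNγ + LPS) in the 12 libraries (columns, by group), coloured by the log2 of CPM plus 0.5 relative to the member's mean over the libraries, with red for higher and blue for lower. Members that are higher in the IFNγ + LPS columns, such as Mrpl27 and Mrpl52, stand beside members that are lower there, such as Mrpl23 and Mrpl33, on the TMM scale.

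IFNγ + LPS moved this family in both directions and, on the TMM scale, by less than 2-fold. Of the 77 members, 32 were higher and 11 lower than in M0 with adjusted p under 0.05, and 34 did not pass (edgeR's quasi-likelihood test, Benjamini-Hochberg adjustment over all 11760 genes). The shares were 41.6% higher and 14.3% lower, against 37.1% and 36.2% of all genes tested, so on this scale the share that rose was near that of all genes and the share that fell was below it. The median log2 change was 0.15 over the members and 0.01 over all genes. Of the members called, 14 changed over 1.5-fold and 0 over 2-fold, against 5735 and 3782 of the 11760 genes tested. The split turns with the scale: with library size alone 6 members were higher and 48 lower, against 19.9% higher and 59.5% lower of all genes, with a median of -0.32 against -0.46 over all genes, and 51 of 77 members lay above the median gene on either scale. With library size as the scale, 17 of the 32 increases changed sign, the members' log2 changes ran from -1.36 (Mrpl23) to 0.49 (Mrpl27), and 5 members were lower by over 2-fold. Once a trend on exon length and GC content was removed, 20 were higher and 15 lower (37.5% and 36.7% of all genes), with a median of 0.03. Under DESeq2 21 members were higher and 9 lower, against 4071 and 4020 of the 22191 genes fitted.

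The 5 largest increases were all in large-subunit proteins. Mrpl27, whose bacterial homologue reaches into the peptidyl transferase centre, lies at chr11:94653767-94660089 and measured 18.2, 19.0 and 21.3 CPM in M0 and 42.7, 35.6 and 35.6 CPM in IFNγ + LPS. The groups did not overlap, and the level was 1.94-fold higher (log2 change 0.96, SE 0.11, edgeR adjusted p = 2.99e-11). Mrpl52, a mitochondria-specific protein at chr14:54426909-54429756, had 17.4, 14.6 and 14.8 CPM in M0 and 32.2, 26.1 and 30.7 CPM in IFNγ + LPS, a 1.90-fold difference (log2 change 0.92, SE 0.12, edgeR adjusted p = 3.21e-10). Mrpl39, also mitochondria-specific, at chr16:84717576-84735742, had 23.0, 24.8 and 21.2 CPM against 39.4, 46.8 and 40.1 CPM (1.84-fold, log2 change 0.88, SE 0.10, edgeR adjusted p = 7.80e-11). Again each stimulated library lay above each M0 library. Mrpl32, a zinc-binding protein that must be cut by the m-AAA protease before it is assembled, at chr13:14608184-14613165, had 9.73, 11.6 and 13.9 CPM against 17.1, 23.0 and 20.4 CPM (1.72-fold, log2 change 0.78, SE 0.14, edgeR adjusted p = 1.93e-06). Mrpl45, which sits at the exit of the nascent chain beside the inner membrane, at chr11:97315716-97329920, had 22.8, 20.9 and 23.9 CPM against 37.3, 37.8 and 41.2 CPM (1.72-fold, log2 change 0.78, SE 0.10, edgeR adjusted p = 1.86e-09). These 5 and Mrps18a were the members that stayed higher in every alternative run here, library size alone included.

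The largest decreases fell on both subunits. Mrpl23, a protein at the rim of the exit tunnel, at chr7:142532686-142540747, had 10.6, 8.39 and 8.63 CPM in M0 and 7.16, 4.50 and 3.37 CPM in IFNγ + LPS, to 0.538 of the M0 level (log2 change -0.89, SE 0.21, edgeR adjusted p = 0.000146). Without IFNγ + LPS replicate 1 its log2 change was -1.21. Mrpl33, at chr5:31596935-31664384, had 30.1, 27.2 and 33.1 CPM against 21.1, 17.8 and 15.0 CPM (log2 change -0.75, SE 0.12, edgeR adjusted p = 1.99e-07). No stimulated library reached the lowest M0 library for either gene. Mrps28, a small-subunit protein at chr3:8802146-8923918, had 10.0, 8.52 and 7.94 CPM against 6.32, 4.86 and 4.68 CPM (log2 change -0.75, SE 0.22, edgeR adjusted p = 0.00201). Mrpl28, at chr17:26123500-26126613, had 32.4, 36.6 and 33.6 CPM against 19.2, 22.7 and 19.7 CPM (log2 change -0.73, SE 0.11, edgeR adjusted p = 2.81e-08). Mrps26, a mitochondria-specific small-subunit protein at chr2:130563742-130568695, had 25.0, 23.7 and 23.8 CPM against 17.3, 12.8 and 15.9 CPM (log2 change -0.66, SE 0.12, edgeR adjusted p = 2.19e-06). The other 6 that fell were Mrpl19, Mrps25, Mrpl50, Mrpl42, Mrpl48 and Mrps24, with log2 changes from -0.49 to -0.30.

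**Figure D2:**
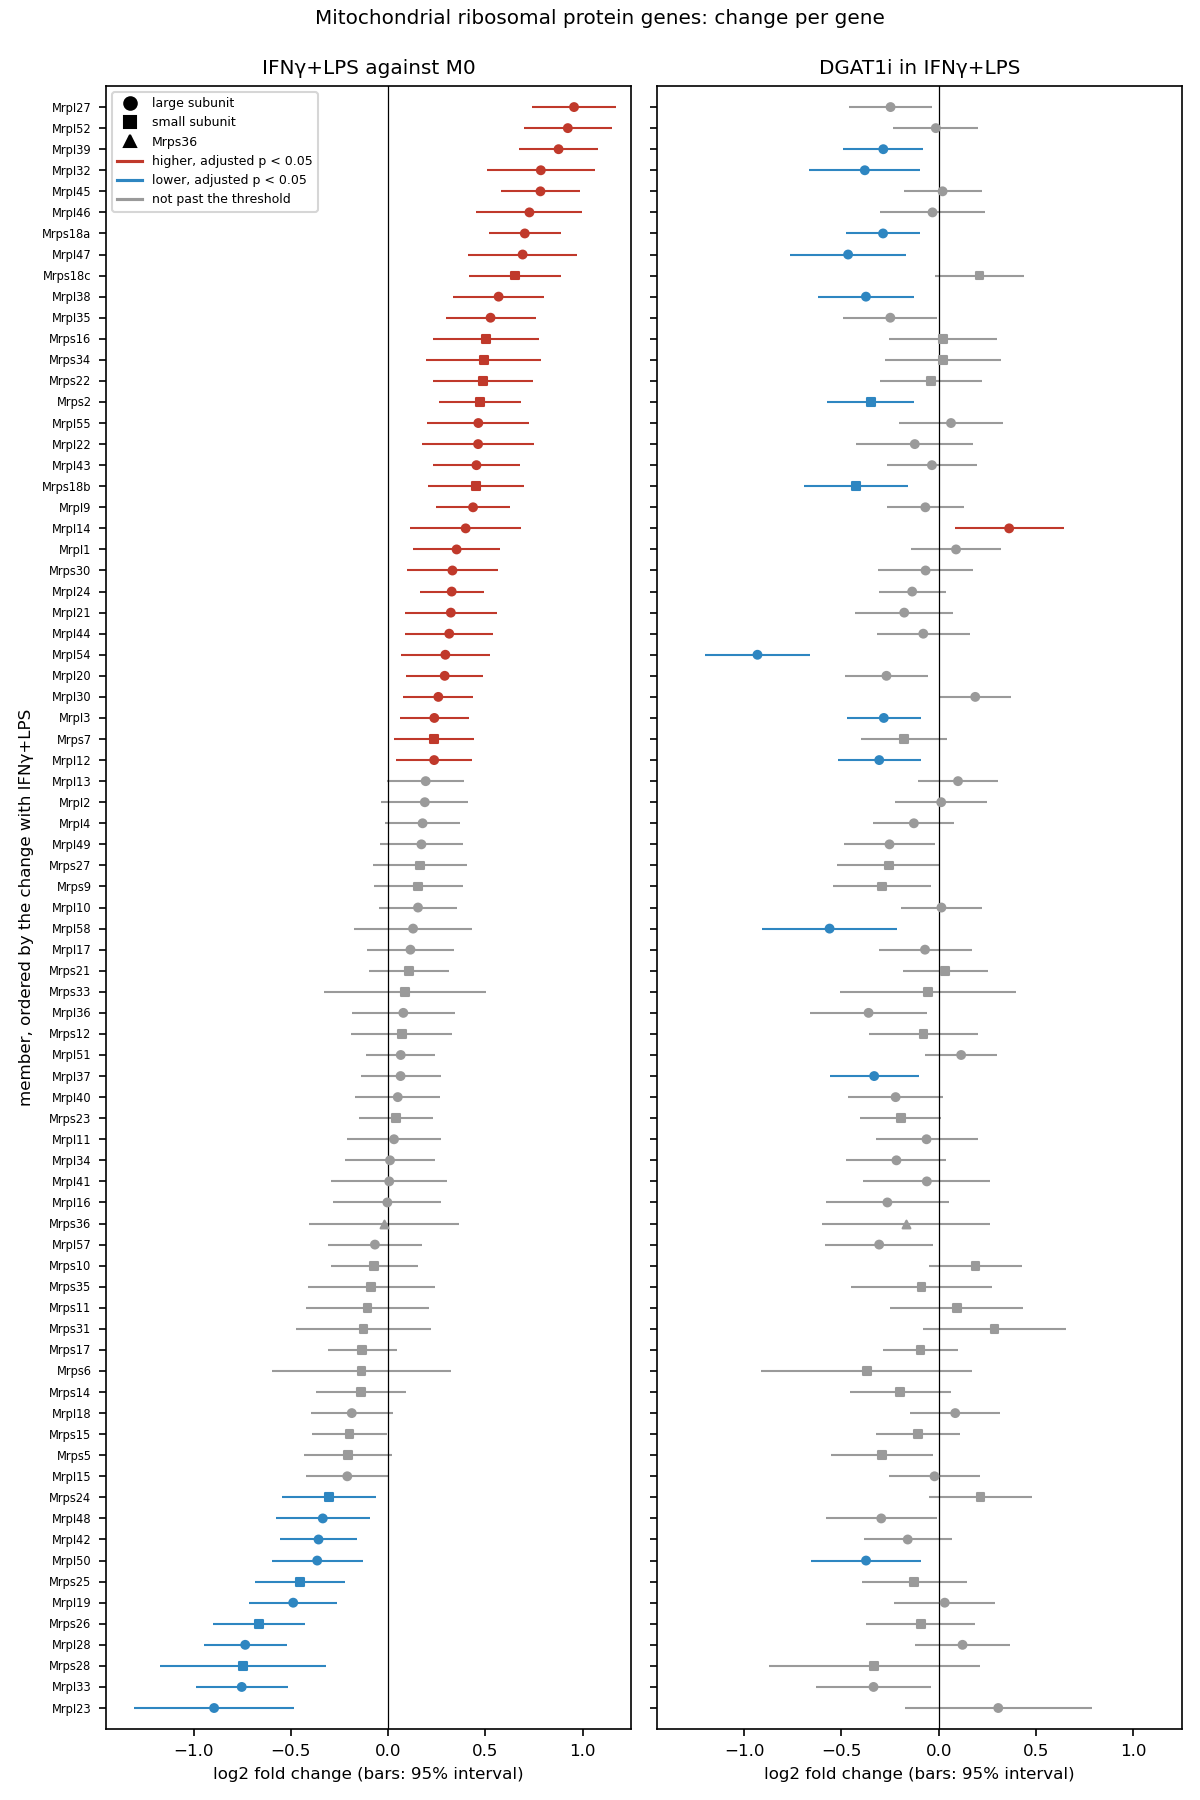
Log2 change of each member with its 95% confidence interval, for IFNγ + LPS against M0 (left) and DGAT1i in IFNγ + LPS (right), on the TMM scale, with members ordered by the left panel and colours for adjusted p under 0.05 (red higher, blue lower, grey not past). With IFNγ + LPS the changes run from -0.89 (Mrpl23) to 0.96 (Mrpl27), and with DGAT1i Mrpl54 (-0.93) stands lowest. With library size alone the median of all genes with IFNγ + LPS moves by -0.47, which turns the sign of the smaller increases.

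Calls in the subunits were counted apart. Of 50 large-subunit proteins 25 were higher and 7 lower with IFNγ + LPS (median log2 change 0.21), and of 26 small-subunit proteins 7 were higher and 4 lower (median -0.02), which is 64.0% and 42.3% called, against 73.3% of all genes (37.1% higher and 36.2% lower). With library size alone these counts were 6 higher and 28 lower for the large subunit and 0 higher and 19 lower for the small one, against 19.9% higher and 59.5% lower of all genes. The medians relative to all genes were 0.21 and -0.02 on both scales, and whether the subunits differ was not tested. Within the large subunit, 16 of the 31 proteins with a bacterial homologue were higher and 4 lower, and 9 of the 19 mitochondria-specific proteins were higher and 3 lower. In the small subunit the counts were 5 higher and 2 lower of 17, and 2 higher and 2 lower of 9. Summed over the large subunit, the level was 1123, 1154 and 1146 CPM in the M0 libraries and 1309, 1326 and 1329 CPM in the IFNγ + LPS libraries. The small subunit summed to 501, 505 and 521 CPM against 535, 523 and 514 CPM, and these groups overlapped.

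Of the other proteins named for their site, Mrpl12, Mrpl3, Mrpl10 and Mrps12 had smaller changes than Mrpl27 or Mrpl45. Mrpl12, the stalk protein that also binds the mitochondrial RNA polymerase, had 36.6, 35.7 and 31.7 CPM in M0 and 36.4, 41.0 and 44.8 CPM in IFNγ + LPS (log2 change 0.24, SE 0.10, edgeR adjusted p = 0.0307), and the groups overlapped. Mrpl3, near the peptidyl transferase centre, had 34.0, 38.6 and 38.0 CPM against 46.7, 40.7 and 43.5 CPM (log2 change 0.24, SE 0.09, edgeR adjusted p = 0.0159). With library size alone both turned, to -0.23 and -0.23, both calls were lost under DESeq2 and in leave-one-out runs, and that of Mrpl12 also with no filter and with the length and GC trend removed. Mrpl10, which anchors the stalk, changed by 0.15 (SE 0.10, edgeR adjusted p = 0.169), and Mrps12, a protein of the decoding centre, by 0.07 (SE 0.13, edgeR adjusted p = 0.643), and neither passed. Mrps36, of 2-oxoglutarate dehydrogenase, changed by -0.02 (SE 0.20, edgeR adjusted p = 0.932).

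Mrps18a, Mrps18b and Mrps18c are paralogues of the single bacterial protein S18. Mrps18a, the large-subunit form at chr17:46110986-46128910, had 27.6, 28.1 and 25.8 CPM in M0, 41.7, 43.6 and 47.2 CPM in IFNγ + LPS, 29.1, 29.5 and 27.3 CPM in M0 + DGAT1i and 39.5, 32.1 and 37.1 CPM in IFNγ + LPS + DGAT1i. It rose with IFNγ + LPS (log2 change 0.70, SE 0.09, edgeR adjusted p = 2.78e-09) and was lower with DGAT1i in stimulated cells (log2 change -0.29, SE 0.10, edgeR adjusted p = 0.0201). Mrps18b, at chr17:35910379-35916389, had 15.8, 13.7 and 15.2 CPM in M0, 18.1, 21.8 and 20.98 CPM in IFNγ + LPS, 15.8, 15.0 and 15.7 CPM in M0 + DGAT1i and 14.4, 13.8 and 17.5 CPM in IFNγ + LPS + DGAT1i. Its increase of 0.45 (SE 0.13, edgeR adjusted p = 0.00119) was -0.018 with library size alone and no longer passed with the length and GC trend removed, and with DGAT1i it was lower by -0.43 (SE 0.14, edgeR adjusted p = 0.0132). Mrps18c, at chr5:100798627-100804471, had 17.9, 16.1 and 14.6 CPM in M0, 27.8, 24.3 and 24.4 CPM in IFNγ + LPS, 14.3, 16.3 and 15.8 CPM in M0 + DGAT1i and 33.6, 29.2 and 25.0 CPM in IFNγ + LPS + DGAT1i. It rose by 0.65 (SE 0.12, edgeR adjusted p = 3.69e-06), and its change with DGAT1i in stimulated cells was 0.21 (95% interval -0.02 to 0.44). All 3 forms were thus higher in stimulated cells on the TMM scale, and the stimulated cells given the inhibitor were lower for 2 of them, calls that were lost under DESeq2 and in 2 (Mrps18a) and 3 (Mrps18b) of the leave-one-out runs. Exons of Mrps18b share 30.5% of their bases with the antisense gene Gm16279, and exons of Mrps18c share 23.2% with Gm43511 on the same strand (188 reads), so both are uncertain where the counting could split or join these reads.

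**Figure D3:**
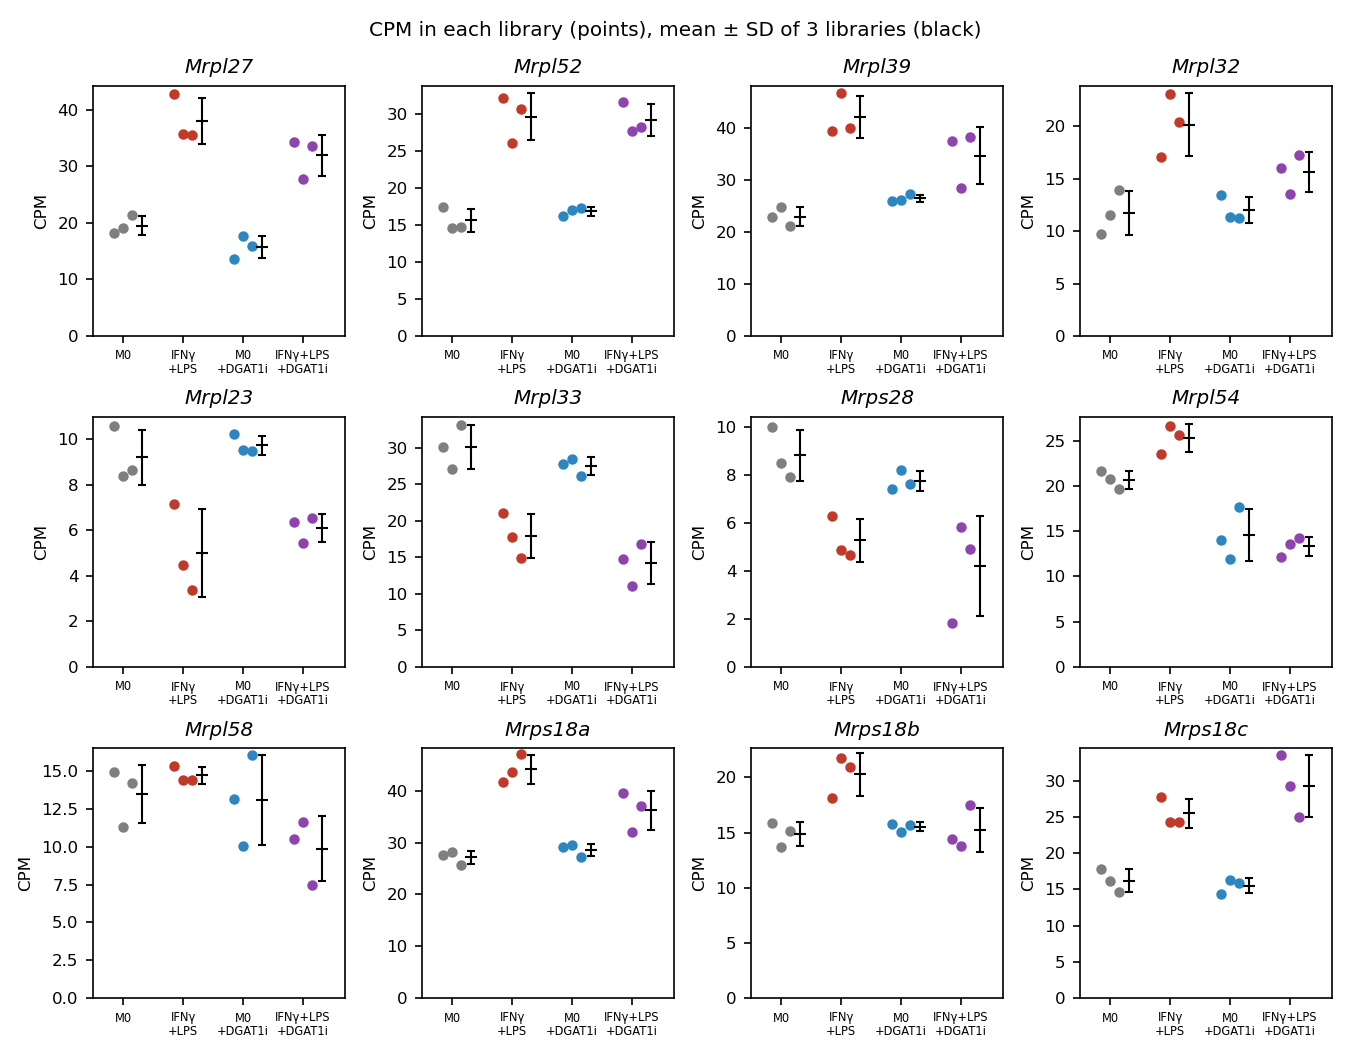
CPM (TMM-scaled) of 12 named members in each library, with a panel per gene, coloured points for the 3 libraries of each of the 4 groups and black marks for the mean ± SD. Mrpl27, Mrpl52 and Mrpl39 are higher in every IFNγ + LPS library than in every M0 library on this scale, Mrpl23 and Mrpl33 are lower, and Mrpl54 is lower in both groups with DGAT1i.

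The same stimulus was also compared in the presence of the inhibitor. IFNγ + LPS + DGAT1i against M0 + DGAT1i gave 21 members higher and 17 lower (27.3% and 22.1%, against 35.3% higher and 35.3% lower of all genes), with a median log2 change of 0.01. With library size alone the counts were 6 and 53 (19.8% and 57.8% of all genes), and with the length and GC trend removed 14 and 25 (34.4% and 37.5% of all genes), with a median of -0.14. Under DESeq2 they were 16 and 11, against 3922 and 3815 of the 22191 genes fitted. With and without the inhibitor alike 19 members were higher and 9 were lower, 13 were higher without it and did not pass with it, and 0 were called in opposite directions. The same counts were not made over all genes, of which 73.3% were called without and 70.6% with the inhibitor. A member that passed without the inhibitor and not with it is not thereby shown to differ, and the difference itself was tested gene by gene.

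Mrpl27 led again, with 13.7, 17.6 and 15.8 CPM in M0 + DGAT1i and 34.4, 27.7 and 33.6 CPM in IFNγ + LPS + DGAT1i (2.03-fold, log2 change 1.02, SE 0.12, edgeR adjusted p = 5.47e-11). Mrpl45 had 19.0, 17.3 and 22.4 CPM against 43.2, 35.5 and 39.2 CPM (log2 change 1.00, SE 0.11, edgeR adjusted p = 4.21e-12). Mrpl14, a protein of the subunit interface to which the assembly factor MALSU1 binds, had 10.6, 10.6 and 12.3 CPM against 24.1, 17.9 and 20.5 CPM (log2 change 0.90, SE 0.14, edgeR adjusted p = 1.93e-07). For these 3 genes no library of one group reached the other. Mrps18c rose by 0.92 and Mrpl52 by 0.80. On the lower side, Mrpl33 changed by -0.96 (27.8, 28.5 and 26.1 CPM against 14.8, 11.1 and 16.8 CPM) and Mrpl50 by -0.78 (21.3, 22.7 and 24.3 CPM against 13.8, 11.7 and 14.2 CPM). Mrpl23 changed by -0.67 and Mrpl57 by -0.61. Mrps28, at -0.90 (7.44, 8.23 and 7.65 CPM against 1.85, 5.84 and 4.90 CPM), rests in part on the library at 1.85 CPM and no longer passed without it.

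DGAT1i lowered 13 members in stimulated macrophages and raised 1. These are 16.9% and 1.30% of the family, against 16.3% lower and 13.5% higher of all genes tested, so the lower share was near that of all genes. The median log2 change was -0.12 over the members and -0.01 over all genes, and 21 of 77 members lay above the median gene. Of the 13, 11 were large-subunit proteins, 6 of them mitochondria-specific, and the other 2 were Mrps2 and Mrps18b. Large-subunit proteins made up 50 of the 77 members, 19 of them mitochondria-specific. Without the inhibitor, 10 of the 13 were higher with IFNγ + LPS than in M0 on the TMM scale (Mrpl3, Mrpl12, Mrpl32, Mrpl38, Mrpl39, Mrpl47, Mrpl54, Mrps2, Mrps18a and Mrps18b), 2 did not pass (Mrpl37 and Mrpl58) and 1 was lower (Mrpl50). The IFNγ + LPS libraries enter both comparisons, once on each side, so these counts are not independent. DESeq2 called only 1 member lower and 0 higher (14 and 0 at an unadjusted p under 0.05), against 11.8% lower and 9.07% higher of all genes.

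Mrpl54, a mitochondria-specific protein at chr10:81264713-81266934, had the largest decrease with DGAT1i. It measured 23.6, 26.6 and 25.7 CPM in IFNγ + LPS and 12.1, 13.6 and 14.2 CPM in IFNγ + LPS + DGAT1i, to 0.524 of the level without the inhibitor (log2 change -0.93, SE 0.14, edgeR adjusted p = 2.81e-07). The groups did not overlap, and Mrpl54 was the single one of the 13 that passed in every alternative. Mrpl58, the peptidyl-tRNA hydrolase that frees stalled chains, had 15.4, 14.4 and 14.4 CPM against 10.50, 11.7 and 7.47 CPM (log2 change -0.56, SE 0.18, edgeR adjusted p = 0.0126). Mrpl47, at chr3:32725397-32737605, had 15.4, 15.7 and 18.5 CPM against 12.8, 12.3 and 10.7 CPM (log2 change -0.47, SE 0.15, edgeR adjusted p = 0.0147). Mrpl38, at chr11:116131817-116138868, had 25.5, 25.2 and 27.2 CPM against 21.2, 19.2 and 19.6 CPM (log2 change -0.37, SE 0.13, edgeR adjusted p = 0.0196). For these genes too each library with the inhibitor lay below each library without it. The other 9 lower members had log2 changes between -0.43 and -0.28, among them Mrpl12 at -0.31 (SE 0.11) and Mrpl3 at -0.28 (SE 0.10). The member that was higher was Mrpl14, with 16.4, 15.1 and 17.2 CPM against 24.1, 17.9 and 20.5 CPM (log2 change 0.36, SE 0.14, edgeR adjusted p = 0.0486), and its call was lost in 15 of the alternatives. Single libraries mattered here, since 3 members were lower without IFNγ + LPS + DGAT1i replicate 2 and 6 without IFNγ + LPS replicate 3. The members summed to 1789, 1626 and 1701 CPM in IFNγ + LPS + DGAT1i, with replicate 2 the lowest of this group, against 1851, 1855 and 1854 CPM in IFNγ + LPS.

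In resting macrophages 5 members were lower with DGAT1i and 0 higher, which is 6.49% of the family, against 13.4% lower and 11.0% higher of all genes (edgeR, 8 lower and 2 higher at an unadjusted p under 0.05). All 5 were large-subunit proteins. Mrpl54 was again the largest, with 21.6, 20.8 and 19.6 CPM in M0 and 14.1, 11.9 and 17.7 CPM in M0 + DGAT1i (log2 change -0.50, SE 0.12, edgeR adjusted p = 0.00112). Each library with the inhibitor lay below each without it, and of the 5 calls Mrpl54 alone passed in every alternative. Mrpl48 had 20.6, 20.0 and 20.9 CPM against 15.8, 14.6 and 17.2 CPM (log2 change -0.37, SE 0.12, edgeR adjusted p = 0.0140). Mrpl9, a homologue of bacterial L9, had 29.8, 29.7 and 28.5 CPM against 25.4, 21.3 and 24.1 CPM (log2 change -0.31, SE 0.10, edgeR adjusted p = 0.0164). Mrpl27 changed by -0.32 (SE 0.12, edgeR adjusted p = 0.0486) and Mrpl42 by -0.26 (SE 0.09, edgeR adjusted p = 0.0381). The count fell to 2 without M0 replicate 2 or without M0 + DGAT1i replicate 2, and to 3 without M0 + DGAT1i replicate 3. DESeq2 called 1 lower and 0 higher (5 and 0 at an unadjusted p under 0.05), against 10.1% lower and 6.30% higher of all genes.

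Whether the response to DGAT1i differed between stimulated and resting cells was tested as the difference of the log2 changes. It was more negative in stimulated cells for 4 members and more positive for 0, that is 5.19% of the family, against 9.80% lower and 8.66% higher of all genes (edgeR, 13 lower and 2 higher at an unadjusted p under 0.05). The 4 were Mrps2, Mrpl39, Mrpl38 and Mrpl57. Mrps2, a homologue of bacterial S2 at chr2:28468066-28471178, had 23.5, 24.0 and 19.9 CPM in M0, 23.6, 27.7 and 25.6 CPM in M0 + DGAT1i, 31.0, 30.4 and 32.2 CPM in IFNγ + LPS and 24.7, 21.9 and 27.1 CPM in IFNγ + LPS + DGAT1i (difference -0.54, SE 0.15, edgeR adjusted p = 0.00892). With the inhibitor its resting and stimulated levels overlapped. Mrpl39 had 25.9, 26.1 and 27.3 CPM in M0 + DGAT1i and 37.5, 28.4 and 38.3 CPM in IFNγ + LPS + DGAT1i, which with the values already given made a difference of -0.49 (SE 0.15, edgeR adjusted p = 0.0148). Mrpl38 had 18.6, 20.3 and 19.3 CPM in M0 + DGAT1i, and its difference was -0.52 (SE 0.17, edgeR adjusted p = 0.0267). Mrpl57, a small mitochondria-specific protein, had 18.7, 18.1 and 20.3 CPM in M0, 23.4, 22.9 and 20.98 CPM in M0 + DGAT1i, 20.0, 15.7 and 19.1 CPM in IFNγ + LPS and 16.3, 15.2 and 12.4 CPM in IFNγ + LPS + DGAT1i (difference -0.54, SE 0.18, edgeR adjusted p = 0.0269). Its M0 + DGAT1i libraries were the highest and its IFNγ + LPS + DGAT1i libraries among the lowest. The next in rank, Mrps18a at -0.36, missed the threshold (edgeR adjusted p = 0.0552). DESeq2 called 0 (5 lower and 0 higher at an unadjusted p under 0.05), against 6.52% lower and 6.41% higher of all genes, and the count of 4 became 2 without M0 replicate 2, without IFNγ + LPS replicate 3 or without IFNγ + LPS + DGAT1i replicate 2. For Mrpl54 the difference was -0.43 and did not pass. In all, 24 members were called in none of the 5 comparisons, which share control libraries. The same count was not made over all genes, so it cannot be read as a trait of the family.

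Other parts of the mitochondrial translation apparatus were read beside the family. Over all genes tested, 37.1% were higher and 36.2% lower with IFNγ + LPS (73.3% called), against which 46.4% of the assembly genes, 53.3% of the translation factors, 55.6% of the genes for transcription and replication, 60.3% of the respiratory chain subunits, 93.5% of the cytosolic ribosomal proteins, 11 of the 20 synthetases and amidotransferase subunits and all 12 regulators were called. Among 5 proteins of the mitochondrial ribosome that carry other names, with IFNγ + LPS 3 were higher and 2 lower on the TMM scale, against 0 and 2 with library size alone. Aurkaip1 had a log2 change of 0.40, Chchd1 of 0.31 and Dap3, a GTP-binding small-subunit protein, of 0.29, while Gadd45gip1 had -0.41 and Ptcd3 -0.27. Aurkaip1 was also lower with DGAT1i in stimulated cells, with 57.9, 49.7 and 56.9 CPM against 46.3, 47.1 and 40.2 CPM (log2 change -0.29, SE 0.09, edgeR adjusted p = 0.00876), and its response to DGAT1i differed from that in M0 by -0.50 (edgeR adjusted p = 0.00162). Of 28 genes for ribosome assembly and rRNA modification, 7 were higher and 6 lower with IFNγ + LPS (0 and 19 with library size alone). The higher ones included Mterf3, which acts in ribosome assembly (0.66), the 2′-O-methyltransferase Mrm1 (0.65) and Malsu1 (0.46), and the lower ones the GTPase Noa1 (-0.94) and Rbfa (-0.88), which binds the small subunit during its maturation. With DGAT1i in stimulated cells 1 of the 28 was higher (Rpusd3, 1.02, 201 reads) and 4 were lower (Rcc1l, Mtg2, Rpusd4 and Dhx30, from -0.57 to -0.27). These are 3.57% and 14.3% of the list, against 13.5% higher and 16.3% lower of all genes. DESeq2 called fewer of the 28, with 3 higher and 2 lower for IFNγ + LPS and 0 higher and 2 lower for DGAT1i in stimulated cells.

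Of 15 translation factors 4 were higher and 4 lower with IFNγ + LPS (1 and 10 with library size alone). The partners Slirp and Lrpprc, which together hold mitochondrial mRNAs, moved in opposite directions. Slirp had 25.3, 26.6 and 26.0 CPM in M0 and 73.3, 70.7 and 70.2 CPM in IFNγ + LPS (log2 change 1.46, SE 0.09, edgeR adjusted p = 2.36e-22), and Lrpprc had 84.1, 87.4 and 81.2 CPM against 64.6, 57.1 and 60.9 CPM (log2 change -0.47, SE 0.07, edgeR adjusted p = 1.02e-07). No library of one group reached the other for either gene. Guf1, the mitochondrial homologue of the bacterial factor LepA, had 41.7, 40.6 and 37.6 CPM against 10.9, 10.8 and 11.4 CPM (log2 change -1.85, SE 0.12, edgeR adjusted p = 4.49e-21). With DGAT1i in stimulated cells Slirp was higher (0.25) and Lrpprc (-0.31), Oxa1l (-0.50) and the recycling factor Mrrf (-0.56) were lower. Of all genes, 13.5% were higher and 16.3% lower in that comparison. Oxa1l, the insertase that receives the new chains at the inner membrane, had 35.4, 43.7 and 40.5 CPM without and 31.7, 26.1 and 27.1 CPM with the inhibitor (edgeR adjusted p = 0.000156). For Lrpprc (-0.47), Oxa1l (-0.48) and Mrrf (-0.94) the response also differed from that in M0. It was more negative than in M0 for 9.80% of all genes. The 20 mitochondrial tRNA synthetases and amidotransferase subunits had 1 higher (Fars2, 0.49) and 10 lower with IFNγ + LPS, with Nars2 (-1.07) the lowest and Tars2 at -0.75, and 0 higher and 16 lower with library size alone. With DGAT1i 1 of them was lower in stimulated cells (Cars2, -0.56) and 2 were higher in M0 (Fars2, 0.38, and Iars2, 0.20). Of all genes, 16.3% were lower in stimulated cells and 11.0% higher in M0. Of 9 genes for mitochondrial transcription and replication, 1 was higher with IFNγ + LPS (the elongation factor Tefm, 0.84) and 4 were lower (Tfb2m -0.82, Polg2 -0.66, Polg -0.51 and Twnk -0.47), against 0 and 7 with library size alone. DGAT1i lowered Polg in M0 (-0.27). With DESeq2, IFNγ + LPS gave 2 higher and 3 lower translation factors, 1 higher and 8 lower synthetases and amidotransferase subunits, and 1 higher and 2 lower of the genes for transcription and replication. For DGAT1i, DESeq2 called 0 higher and 2 lower translation factors in stimulated cells, with 1 response that differed from M0, and 0 of the synthetases and amidotransferase subunits in either state. The calls of Fars2 and Iars2 in M0 were lost with library size alone as well.

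Regulators known for mitochondrial biogenesis included larger changes than any member had. Of 12 tested, 8 were higher and 4 lower with IFNγ + LPS on the TMM scale, against 4 and 6 with library size alone, and 2 were too low to test (Ppargc1a with 1 read and Mycn with 0). The coactivator Ppargc1b had 4.07, 3.60 and 2.78 CPM in M0 and 21.7, 27.9 and 26.4 CPM in IFNγ + LPS (log2 change 2.86, SE 0.17, edgeR adjusted p = 5.34e-22). Its nuclear receptor partner Esrra had 28.3, 34.9 and 32.2 CPM against 94.5, 81.4 and 93.8 CPM (log2 change 1.49, SE 0.08, edgeR adjusted p = 2.07e-23). Both groups of libraries were fully apart for these genes. Myc, a driver of ribosome biogenesis, had 32.3, 38.2 and 32.6 CPM in M0 and 0.842, 0 and 0.187 CPM in IFNγ + LPS, with 743 and 5 reads in all (edgeR adjusted p = 1.18e-29). Its partner Max (1.49) and the antagonist Mxd1 (4.16) were higher. Mxd1 had 13.2, 14.9 and 13.1 CPM against 222, 278 and 238 CPM. The others moved by smaller steps, Gabpb1 by 0.55, Yy1 by 0.33, Pprc1 by 0.24, Nrf1 by 0.23, Gabpa by -0.44, Gabpb2 by -0.37 and Hcfc1 by -0.21. With DGAT1i in stimulated cells 6 of the 12 were lower and 1 higher, against 16.3% lower and 13.5% higher of all genes. Ppargc1b had 17.7, 13.8 and 14.7 CPM with the inhibitor (log2 change -0.72, SE 0.14, edgeR adjusted p = 5.15e-05) and Esrra 74.5, 69.5 and 76.1 CPM (-0.29). Gabpb2 (-0.49), Pprc1 (-0.42), Nrf1 (-0.42) and Gabpa (-0.31) were lower too, and Mxd1 (0.45) was higher. In M0, DGAT1i lowered Nrf1 (-0.28), Myc (-0.29) and Hcfc1 (-0.27), which is 3 of the 12, against 13.4% of all genes. In that comparison 6 regulators were lower with library size alone and 1 under DESeq2. The response differed between stimulated and resting cells for Pprc1 (-0.56), Esrra (-0.50) and Hcfc1 (0.30). Of all genes, 9.80% had a more negative and 8.66% a more positive response.

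The family was set beside the ribosome of the cytosol and beside the respiratory chain. Of 77 cytosolic ribosomal proteins 1 was higher and 71 were lower with IFNγ + LPS, with a median log2 change of -0.58 (0 and 76, median -1.05, with library size alone), whereas the mitochondrial ribosomal proteins had 32 higher and 11 lower with a median of 0.15 (6 and 48, -0.32, with library size alone). Cytosolic ribosomal proteins took 2.34% of all reads in M0 and 1.13% in IFNγ + LPS. With DGAT1i in stimulated cells 18 of them were higher and 4 lower (median 0.08). For 14 of the 77 the response was more positive than in M0 and for 2 more negative, against 8.66% and 9.80% of all genes. The 78 nuclear-encoded subunits of the respiratory chain had 36 higher and 11 lower with IFNγ + LPS (median 0.15, or 9 and 49 with library size alone), and 1 higher and 18 lower with DGAT1i in stimulated cells (median -0.08). Of all genes, 13.5% were higher and 16.3% lower with DGAT1i in stimulated cells, and 11.0% higher and 13.4% lower in M0. In M0, DGAT1i lowered 2 cytosolic ribosomal proteins and raised 1, and lowered 7 respiratory chain subunits and raised 0 (16 lower in each list with library size alone).

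**Figure D4:**
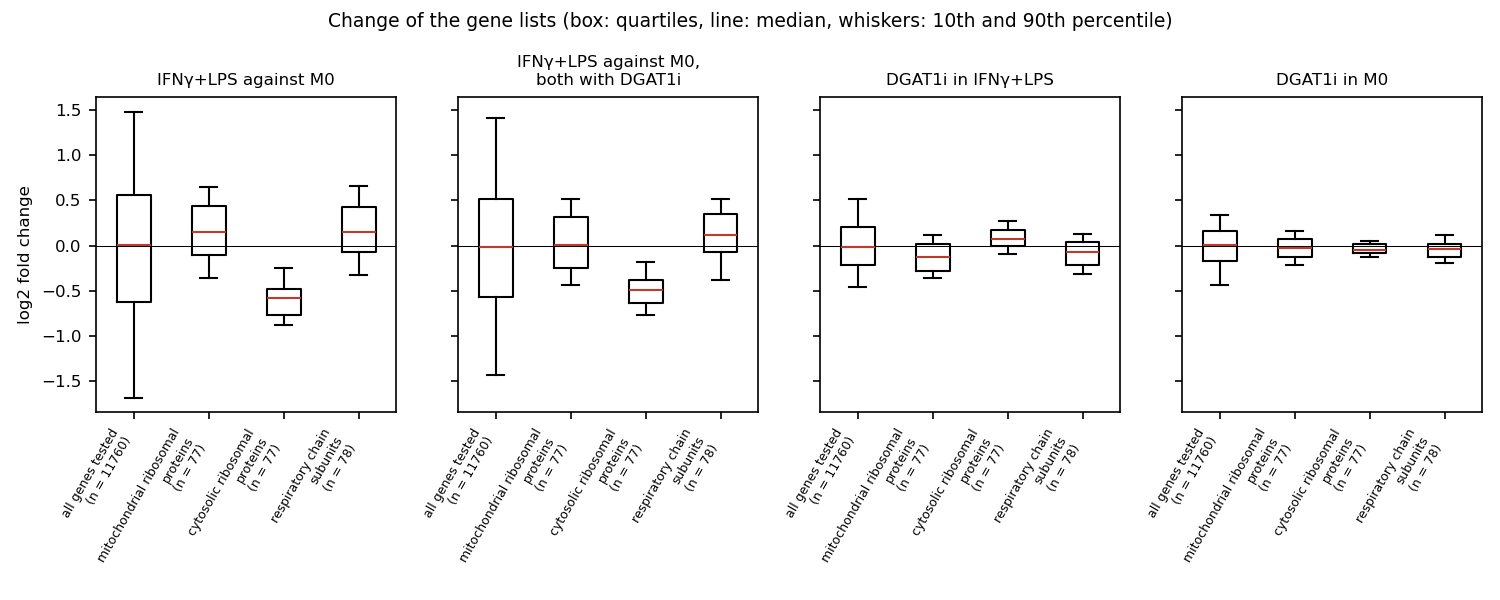
Log2 changes of all genes tested and of each list, by comparison (TMM scale), with a box for the quartiles, a red line for the median and whiskers to the 10th and 90th percentile. With IFNγ + LPS the mitochondrial ribosomal proteins (median 0.15) and respiratory chain subunits (0.15) lie around and above 0 while the cytosolic ribosomal proteins (-0.58) lie below it. With library size alone the medians are -0.32, -0.32 and -1.05.

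Many members share their start with another gene. Of the 77, 33 (42.9%) have a partner gene on the opposite strand whose start lies within 1 kb, against 17.9% of the 10665 protein-coding genes with at least 100 reads. With IFNγ + LPS both genes were called in 12 of 29 pairs tested, in the same direction in 9 and in opposite directions in 3. Over all 832 pairs in which a protein-coding gene has such a partner, both were called in 49.2%, and 68.0% of those moved in the same direction, against 12 of 29 and 9 of 12 for the members. Mrpl32 (0.78) and the proteasome subunit Psma2 (0.87) rose, as did Mrps18b (0.45) with Ppp1r10 (0.38) and Mrps18c (0.65) with Helq (0.58). Mrpl27 rose by 0.96 while its partner Eme1, a nuclease subunit, changed by -3.86. Mrpl46 and Mrps11 face each other and are both members, and Mrpl46 rose by 0.73 whereas Mrps11 changed by -0.11 and did not pass. For Mrpl54, lowered by DGAT1i in both states, the partner Apba3 had log2 changes of 0.24 in stimulated and 0.34 in resting cells. Where transcripts of both strands overlap and the counting ignores strand, reads of a pair cannot be told apart. In all, 18 members share at least 5% of their exon bases with a gene of 100 reads or more, on the opposite strand for 15. Exons of Mrps25 share 69.8% of their bases with Nr2c2, Mrps34 63.4% with Mapk8ip3, Mrpl19 36.0% with Gcfc2, Mrpl43 33.4% with Twnk, Mrpl24 26.3% with Rrnad1, Mrpl47 13.9% with Ndufb5, Mrpl46 12.2% with Mrps11, Mrpl14 11.2% with Tmem63b, Mrpl48 8.69% with Rab6a and Mrpl27 7.61% with Eme1, and these members, with Mrpl18, Mrpl21, Mrpl44, Mrps7 and Mrps11, are uncertain in that sense, as are Mrps24 and Mrps6, which share exon bases with a gene on the same strand.

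Several measures of the libraries moved with the groups. The genes of mitochondrial DNA took 4.77% of reads in M0, 4.02% in IFNγ + LPS, 5.79% in M0 + DGAT1i and 4.85% in IFNγ + LPS + DGAT1i. The granulocyte markers summed to 27.8 to 35.4 CPM in M0, 11.6 to 16.3 in IFNγ + LPS, 22.7 to 28.5 in M0 + DGAT1i and 45.9 to 55.8 in IFNγ + LPS + DGAT1i, where S100a8 had 34.5, Ngp 9.18 and Ltf 4.33 CPM against 9.13, 1.35 and 0.932 CPM in IFNγ + LPS, while Mmp8 had 1.57 against 2.27 CPM and Camp 0.718 against 0.586 CPM, with the defining markers Ly6g and Retnlg at 0 reads in every library. The dendritic cell markers summed to 0.133 to 0.835 CPM in M0, 11.99 to 16.8 in IFNγ + LPS, 0.264 to 0.568 in M0 + DGAT1i and 3.13 to 4.12 in IFNγ + LPS + DGAT1i, mostly Xcr1 and Clec9a in both stimulated groups and mostly Zbtb46 in both resting groups, with Flt3 at 0 to 2 reads in a group. Their part in the members' changes was not tested. Dgat1, the target of T863, had 10.0, 14.4 and 13.8 CPM in M0 and 17.3, 19.6 and 19.3 CPM in IFNγ + LPS (log2 change 0.55, SE 0.14, edgeR adjusted p = 0.000291). Its mRNA does not show whether the enzyme was blocked.

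**Figure D5:**
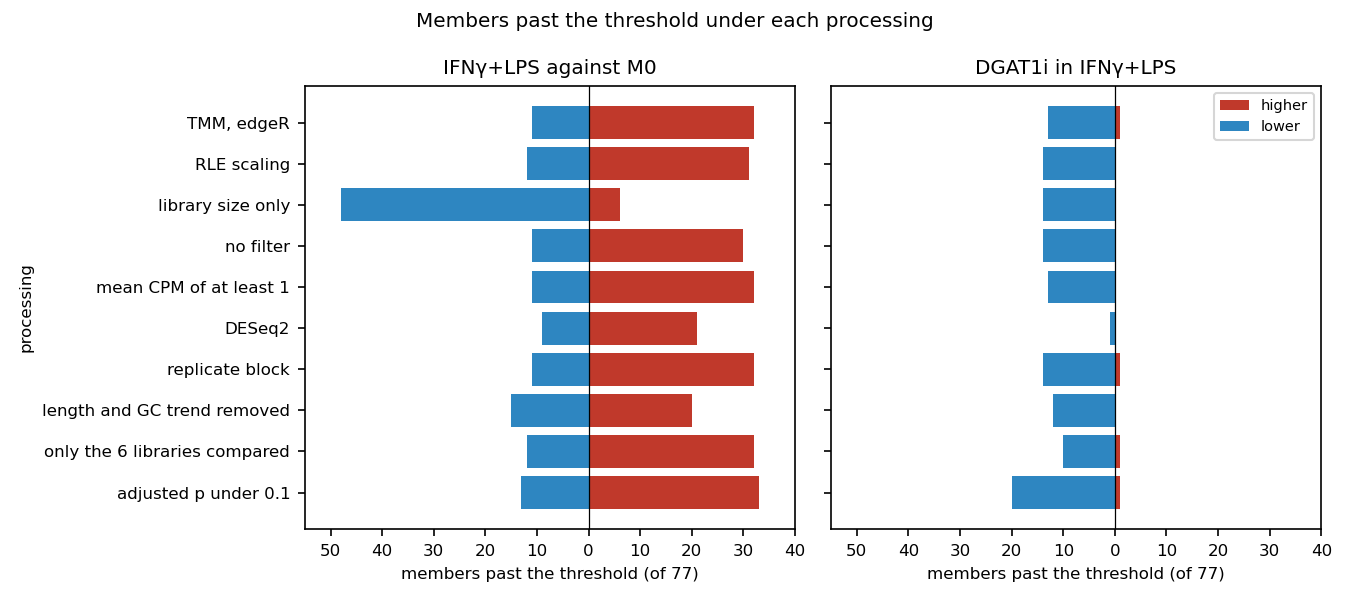
Number of the 77 members called higher (red, to the right) and lower (blue, to the left) for IFNγ + LPS against M0 and for DGAT1i in IFNγ + LPS, under each way of processing the counts (rows). With IFNγ + LPS the split of 32 higher and 11 lower becomes 6 and 48 with library size alone and 20 and 15 with the length and GC trend removed, and the 13 members lower with DGAT1i in stimulated cells become 1 under DESeq2.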

How the data were processed

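RNA was sequenced from 12 libraries, 3 per group. The authors deposited raw counts of reads per gene, with 12 columns for 12 samples, and 0 columns were left out. The submitters' processing notes name GRCm38 and DESeq2. The aligner, the counting tool with its strand setting and the annotation release were not given in the sources used here. The study's methods name a stranded mRNA kit and the labels another kit, so strand is uncertain. Symbols, exon lengths and positions came from GENCODE M21 (GRCm38), matched on the gene ID without its version for 47310 of 47937 genes and with the same version for 56 of the 77 members. Promoters came from RefSeq (GRCm38.p6).

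The members, the lists and the naming rule were chosen with earlier results of these data known. Counts were tested with edgeR 4.0.16 in R 4.3.3 (filterByExpr, TMM, robust quasi-likelihood fit with 1 mean per group over the 12 libraries), two-sided, with Benjamini-Hochberg adjustment over 11760 genes and a threshold of 0.05. CPM was computed from the counts with TMM-scaled library sizes. The genes named were, per comparison, up to 5 increases and 5 decreases past the threshold whose groups did not overlap and whose mean log2 CPM was 2 or more (for the difference, the 5 smallest p), the 3 highest and 3 lowest members per kilobase, members at functional sites, members of related lists past the threshold and every regulator. A few others were named, after their values were seen, where a count turned on them. Alternatives were RLE scaling, library size alone, no filter, a mean CPM of 1 or more, DESeq2 1.42.0, a replicate block, removal of a length and GC trend (11726 genes), only the 6 libraries compared, a threshold of 0.1 and each library left out in turn. Libraries of 1 group differed by more than sampling noise (chi-square per gene 1.98 to 4.23).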

Additional observations from a re-analysis of the deposited data

Results flagged for a closer look

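The response to DGAT1i differed between stimulated and resting macrophages for 4 members by the test of the difference itself, all 4 more negative in stimulated cells, which is 5.19% of the family against 9.80% lower and 8.66% higher of all genes. The differences of the log2 changes (stimulated minus resting) were -0.54 for Mrps2, -0.54 for Mrpl57, -0.52 for Mrpl38 and -0.49 for Mrpl39, each with 3 libraries per group. Mrps2 lost its call under DESeq2 alone among the alternatives run, and the other 3 lost theirs in leave-one-out runs as well.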

How the results depend on the processing

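Leaving out each library in turn, IFNγ + LPS against M0 gave 26 to 32 members higher and 10 to 11 lower, DGAT1i in IFNγ + LPS 0 to 1 higher and 3 to 14 lower, DGAT1i in M0 0 to 1 higher and 2 to 5 lower, the difference 0 to 1 higher and 2 to 5 lower, and IFNγ + LPS under DGAT1i 18 to 21 higher and 12 to 18 lower. With library size alone IFNγ + LPS gave 6 higher and 48 lower without and 6 and 53 with the inhibitor, DGAT1i in IFNγ + LPS 0 higher, DGAT1i in M0 8 lower and the difference 2 lower, and 17 of the 32 increases without and 10 of the 21 with the inhibitor changed sign, 4 of them among the named values: in IFNγ + LPS against M0 Mrpl12 to -0.23 (edgeR adjusted p = 0.0328), Mrpl3 to -0.23 (0.0179) and Mrps18b to -0.018 (0.899), and in IFNγ + LPS under DGAT1i Mrps18a to -0.080 (0.461). These follow from the scale, which moves all genes. With DESeq2 the counts were 21 higher for IFNγ + LPS, 11 lower for IFNγ + LPS under DGAT1i, 0 higher and 1 lower for DGAT1i in IFNγ + LPS, 1 lower for DGAT1i in M0 and 0 lower for the difference, and the cause was not tested. With the length and GC trend removed IFNγ + LPS gave 20 higher, IFNγ + LPS under DGAT1i 14 higher and 25 lower, DGAT1i in IFNγ + LPS 0 higher, DGAT1i in M0 1 higher and 3 lower and the difference 7 lower. DGAT1i in IFNγ + LPS had 0 higher with RLE scaling, with no filter and with a mean CPM of at least 1, and DGAT1i in M0 had 3 lower with no filter and 1 higher with only the 6 libraries compared. At an adjusted p under 0.1 DGAT1i in IFNγ + LPS had 20 lower, DGAT1i in M0 1 higher, and the difference 8 lower and 1 higher. Deviations of libraries from their group means correlated at -0.02 to 0.07 for the same replicate number and at -0.06 to 0.04 for different numbers. The labels do not say whether the numbers pair the libraries, and correlations this low cannot exclude it. With the replicate block the counts were 32 and 11 for IFNγ + LPS, 1 and 14 for DGAT1i in IFNγ + LPS, 1 and 5 for DGAT1i in M0, 0 and 4 for the difference and 20 and 17 for IFNγ + LPS under DGAT1i, and it changed the call of 0 of the named values, while Mrpl47 no longer passed for IFNγ + LPS under DGAT1i. Of 940 values of named genes under the alternatives, 838 kept their direction and side of the threshold, 94 fell short of it, 4 newly passed it and 4 reversed. All alternatives considered, 6 of the 32 increases and 9 of the 11 decreases with IFNγ + LPS and 1 of the 13 decreases with DGAT1i passed in each. With 9 to 356 reads per member and library and 3 libraries per group, changes with DGAT1i near the median standard error of 0.13 were not detectable.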
